A study of Mus musculus with 6 samples.

Results

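The megakaryocyte and platelet genes described here are 10 genes out of the 38293 in the deposited count tables: *Itga2b*, *Gp1ba*, *Gp1bb*, *Gp9*, *Gp5*, *Gp6*, *Vwf*, *Pf4*, *Ppbp* and *Treml1*. They were chosen by name as genes typical of the lineage and matched by symbol to their mouse Ensembl identifiers. *Itga2b* stood for the early stage of the lineage and the other 9 for later maturation. RNA-seq had been done on fetal liver (FL) cells of E14.5 embryos on a C57BL/6 background, with 3 wt embryos and 3 hnRNP L deficient embryos. The labels call the wt embryos wild-type, and a figure legend of the study marks the wt samples as L fl/fl, with floxed alleles. In the hnRNP L deficient embryos (VavCre+hnRNP L fl/fl), the floxed *Hnrnpl* alleles are removed by Cre recombinase under the control of the Vav promoter, which is active in blood-forming cells. Whether other cells of the FL kept the gene was not tested. Each library came from a different embryo. The methods of the study describe the cells as sorted Lin-cKit+ FL cells, while the labels give FL cells as the source and the whole embryo as the tissue. The lineage cocktail of the study held an antibody against CD49b, the integrin chain encoded by *Itga2* that platelets also carry, and none against a product of the 10 genes. Bulk RNA cannot tell fewer cells of a type from less RNA per cell.

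Megakaryocytes are the large, polyploid bone marrow and FL cells that shed platelets. They arise from stem cells and from progenitors shared with the erythroid lineage, under the control of thrombopoietin and of transcription factors of the GATA, ETS and RUNX families. Integrin alpha IIb (CD41), the product of *Itga2b*, appears early and is also found on some stem and progenitor cells of the embryo, whereas the receptor complex GPIb-IX-V, the collagen receptor GPVI and the granule chemokines accumulate as the cells mature.

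The libraries held between 55952160 and 76157226 reads on genes. At this depth 3 reads corresponded to at most 0.0536 CPM, the reads scaled to the normalized library size. *Hnrnpl* itself had between 528 and 552 CPM in wt libraries and between 242 and 288 CPM in hnRNP L deficient libraries, which is a log2 fold change of -1.01 ± 0.088 (SE; edgeR adjusted p = 0.0072). These counts cover all exons of the gene, whether or not they lie in the deleted part. *Kit*, whose product was used for the sort, had between 423 and 656 CPM in wt and between 325 and 368 CPM in hnRNP L deficient cells (edgeR adjusted p = 0.040). Wt replicate 2 stood apart by markers of neutrophil precursors: 8 such genes summed to 8684 CPM in it, while wt replicates 1 and 3 had 566 and 1468 CPM and the hnRNP L deficient libraries between 241 and 873 CPM. It also had the most mast cell and basophil markers (268 CPM, compared to between 24.7 and 95.4 CPM in the other 5 libraries).

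Among the 10 genes, 9 passed the expression filter. Of these, *Gp1ba* and *Gp5* rose in hnRNP L deficient cells, *Vwf* fell, and the remaining 6 did not pass the test at an adjusted p of 0.05. Over all 14396 genes tested, 9.32% were called higher and 9.85% were called lower, and the median log2 fold change was -0.026, compared to -0.16 over the 9. In 2 of the 9, *Gp1ba* and *Gp5*, every hnRNP L deficient library lay above every wt library, an arrangement found in 22.7% of all genes tested. In a further 2, *Gp9* and *Vwf*, every hnRNP L deficient library lay below every wt library, which also held for 22.7% of all genes tested. Calls thus went in both directions among the 9. With so few genes, these counts were not read as setting them apart from all genes tested.

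**Figure D1:**
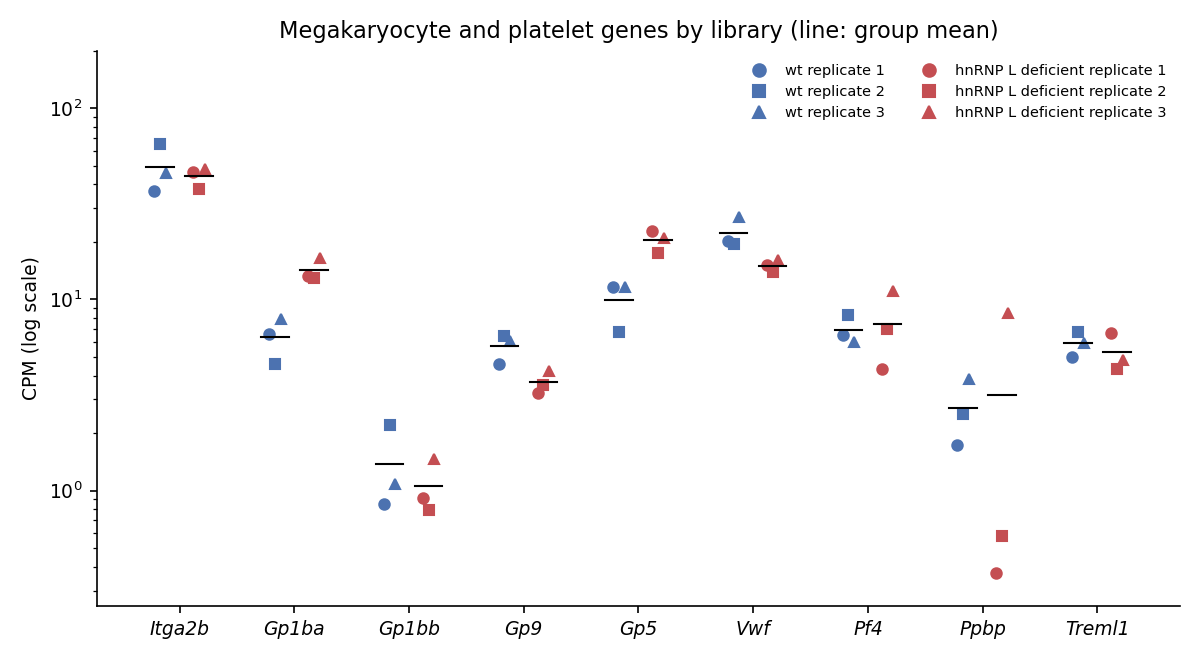
Level of 9 of the 10 genes in each library, in CPM on a log axis, with wt in blue and hnRNP L deficient in red. Symbols mark the replicates and black lines the group means. The 3 red points lie above the blue points for *Gp1ba* and *Gp5* and below them for *Gp9* and *Vwf*, and hnRNP L deficient replicate 3 stands at 8.49 CPM for *Ppbp* while the other 2 are at 0.373 and 0.581 CPM. *Gp6* had between 0 and 13 reads per library and is not drawn.

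Per kilobase of merged exons, the members spanned a wide range in wt cells. *Pf4* came first with 9.61 ± 1.67 CPM per kb (SD, n = 3), ahead of *Itga2b* with 9.03 ± 2.69, *Gp9* with 6.47 ± 1.12, *Gp5* with 4.55 ± 1.29 and *Treml1* with 4.20 ± 0.606. Below them came *Ppbp* with 2.48 ± 0.986 CPM per kb, *Gp1ba* with 2.34 ± 0.608, *Vwf* with 1.39 ± 0.249, *Gp1bb* with 0.660 ± 0.346 and *Gp6* with 0.0179 ± 0.0107. The wt ranges of each neighbouring pair from *Pf4* down to *Treml1* overlapped, as did those of *Ppbp* and *Gp1ba*, so that their order was not set beyond the spread. In hnRNP L deficient cells *Gp5* moved from the fourth to the second place with 9.34 ± 1.24 CPM per kb, and *Gp1ba* from the seventh to the fourth with 5.25 ± 0.713. *Gp9* moved in the other direction, from the third to the fifth place, with 4.19 ± 0.578 CPM per kb. These levels rest on the annotated exon lengths, and the long annotated exons of *Vwf* (16064 bases) and *Itga2b* (5454 bases) lower their values. For *Gp1bb*, 1902 of its 2087 bases are shared on the same strand with *Sept5*, and ambiguous reads were left out. This lowers its value per kb, so that its place in the order is uncertain.

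The receptor for von Willebrand factor on platelets, GPIb-IX-V, is assembled from the products of *Gp1ba*, *Gp1bb*, *Gp9* and *Gp5*, and its genes went in different directions. *Gp1ba* (ENSMUSG00000050675; chromosome 11, 70639122 to 70642036, plus strand, GRCm38) encodes the chain that binds von Willebrand factor. The wt libraries, in the order of replicates 1 to 3, had 6.59, 4.62 and 7.90 CPM of it, and the hnRNP L deficient libraries, in the same order, 13.3, 13.02 and 16.5 CPM. The lowest hnRNP L deficient library was thus clearly above the highest wt library. On the log2 scale it rose by 1.16 ± 0.22 (SE; edgeR adjusted p = 0.020), to a 2.24-fold higher level. *Gp5* (ENSMUSG00000047953; chromosome 16, 30307685 to 30310779, minus strand), the gene of the chain that is cleaved by thrombin, had 11.6, 6.72 and 11.6 CPM in wt libraries and 22.9, 17.6 and 21.1 CPM in hnRNP L deficient libraries. Here too the groups were separate, and wt replicate 2 was the lowest. The rise was 1.04 ± 0.23 on the log2 scale (SE; edgeR adjusted p = 0.028), a 2.05-fold higher level. Without wt replicate 2 the log2 fold changes were 0.98 for *Gp1ba* and 0.82 for *Gp5*, with edgeR adjusted p-values of 0.0091 for each.

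*Gp9* (ENSMUSG00000030054; chromosome 6, 87778072 to 87779768, plus strand) encodes GPIX, a small chain needed to bring the complex to the surface. Its levels were 4.57, 6.44 and 6.08 CPM in wt and 3.25, 3.58 and 4.25 CPM in hnRNP L deficient libraries. The groups did not overlap, but the gap between them was narrow. The log2 fold change of -0.63 ± 0.21 (SE) did not pass edgeR's test (adjusted p = 0.075), while the adjusted p was 0.029 with DESeq2 and 0.036 with limma-voom, and ranged from 0.029 to 0.22 over all alternatives. *Gp1bb* (ENSMUSG00000050761; chromosome 16, 18620317 to 18622403, minus strand), the gene of the chain linked to GPIb alpha by disulfide bonds, had 0.846, 2.20 and 1.09 CPM in wt and 0.916, 0.796 and 1.46 CPM in hnRNP L deficient libraries. The groups overlapped, and the difference was -0.38 ± 0.44 on the log2 scale (SE; edgeR adjusted p = 0.56), or 0.13 without wt replicate 2. Of its 2087 exonic bases, 1902 are shared on the same strand with *Sept5*, so that reads from the 2 genes cannot be told apart there and the level of *Gp1bb* is uncertain.

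The exact two-sided permutation test of the single gene gave p = 0.1 for *Gp1ba*, *Gp5*, *Gp9* and *Vwf*, the smallest value that 3 libraries against 3 allow. The calls of *Gp1ba*, *Gp5* and *Vwf* were kept without wt replicate 1 or 2 but not without wt replicate 3 or any of the hnRNP L deficient replicates, when edgeR called between 5 and 17 genes in all. The log2 fold change of *Gp1ba* stayed between 0.98 and 1.35, that of *Gp5* between 0.82 and 1.17 and that of *Vwf* between -0.65 and -0.41 whichever library was left out.

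**Figure D2:**
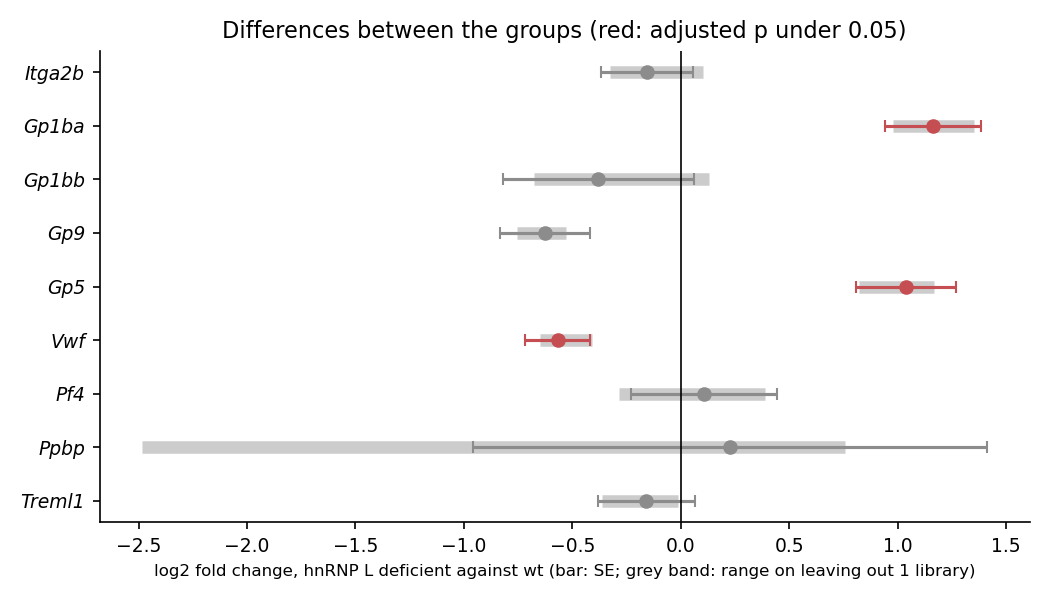
Log2 fold change of hnRNP L deficient against wt cells for the 9 genes tested, with bars of 1 SE and grey bands for the range on leaving out each library in turn. Red marks an edgeR adjusted p under 0.05. The bands of *Gp1ba* and *Gp5* lie wholly above 0 and those of *Gp9* and *Vwf* wholly below it, while the band of *Ppbp* runs from -2.49 to 0.76.

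The sequences upstream of the start are shown for *Gp1ba* and *Gp5*, which rose together, and for *Itga2b*, the early gene, which did not. They are the 250 bases before the start in RefSeq's promoter table for GRCm38, 5′ to 3′ on the strand of the gene, with capitals for the GATA motifs AGATAA and TGATAA and the ETS motifs AGGAAG and CGGAAG on either strand. No motif overlapped another in these 3 sequences. The *Gp1ba* sequence is chr11:70638872-70639121 (plus strand), the *Gp5* sequence chr16:30310782-30311031 (minus strand) and the *Itga2b* sequence chr11:102469884-102470133 (minus strand).
Gp1ba: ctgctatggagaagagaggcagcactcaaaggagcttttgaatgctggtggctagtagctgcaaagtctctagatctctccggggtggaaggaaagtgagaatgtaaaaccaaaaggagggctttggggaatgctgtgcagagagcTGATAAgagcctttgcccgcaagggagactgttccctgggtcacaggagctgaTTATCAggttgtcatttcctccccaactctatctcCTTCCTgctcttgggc
Gp5: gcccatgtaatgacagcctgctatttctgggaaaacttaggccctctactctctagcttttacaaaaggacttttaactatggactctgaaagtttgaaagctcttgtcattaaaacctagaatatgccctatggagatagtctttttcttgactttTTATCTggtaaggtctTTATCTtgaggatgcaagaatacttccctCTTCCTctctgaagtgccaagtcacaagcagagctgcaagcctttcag
Itga2b: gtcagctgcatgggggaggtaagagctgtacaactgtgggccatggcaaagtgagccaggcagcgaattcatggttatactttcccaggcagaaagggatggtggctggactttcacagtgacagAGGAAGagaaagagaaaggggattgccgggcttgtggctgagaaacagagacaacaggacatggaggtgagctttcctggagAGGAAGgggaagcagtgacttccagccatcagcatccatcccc

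In *Gp1ba* the capitals mark TGATAA once on each strand and AGGAAG on the other strand. In *Gp5* they mark AGATAA at 2 places and AGGAAG at 1 place, all on the other strand. In *Itga2b* they mark AGGAAG at 2 places on the strand shown, and no GATA motif was found in this window. Most of the *Itga2b* window lies inside the gene as annotated by GENCODE, which on the minus strand begins at 102470122. The sequences of *Gp1ba* and *Gp5* lie outside their annotated genes. Most bases before the GENCODE start of *Itga2b* were thus not searched, and the 3 sequences are not fully comparable. The table held a window of 300 bases, 50 of them after the start, for 9 of the 10 genes, all but *Vwf*. A GATA motif was found in 4 of these 9 windows (*Gp1ba*, *Gp5*, *Gp6* and *Pf4*), compared to 18.6% of all 32851 windows. *Gp1ba* and *Gp5* were the 2 with at least 2 GATA motifs, which 3.26% of all windows held. An ETS motif was found in 6 of the 9 windows, compared to 46.5% of all windows, and *Itga2b* and *Gp1bb* had 2 such motifs, while 15.9% of all windows held at least 2. These are matches of letters and not measured binding sites.

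*Vwf* (ENSMUSG00000001930; chromosome 6, 125546774 to 125686679, plus strand) encodes von Willebrand factor, the adhesive protein stored in platelet alpha granules and in endothelial cells and the ligand of the product of *Gp1ba*. It had 20.3, 19.6 and 26.9 CPM in wt libraries and 15.1, 14.0 and 16.1 CPM in hnRNP L deficient libraries. The highest value among hnRNP L deficient libraries was below the lowest in wt. Its log2 fold change was -0.57 ± 0.15 (SE; edgeR adjusted p = 0.040), a level 0.675 times that of wt. Since endothelial cells also make von Willebrand factor, 10 endothelial markers were examined beside it. None rose and 2 fell, *Emcn* (log2 fold change -1.83, edgeR adjusted p = 0.017) and *Pecam1* (-2.07, edgeR adjusted p = 0.026), and at an unadjusted p under 0.05 the counts were 1 higher and 5 lower. The median log2 fold change of the 10 was -0.47. Their sum was between 101 and 134 CPM in wt and between 104 and 112 CPM in hnRNP L deficient libraries, with *Egfl7* the largest part of it at 64.5 ± 4.64 CPM in wt and 77.1 ± 1.40 CPM in hnRNP L deficient cells (SD, n = 3). *Cdh5*, the endothelial cadherin, was low in all libraries, between 0.384 and 1.29 CPM in wt and between 0.202 and 0.482 CPM in hnRNP L deficient cells. The part of endothelial cells in the level of *Vwf* was not tested.

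Reads along the exons of the 10 genes were analysed in 5 libraries, 3 wt and hnRNP L deficient replicates 2 and 3, as counts on exon bins, the pieces into which overlapping annotated exons are cut. The 17 bins counted for *Gp1bb*, 14 of which could be tested, belonged to a unit that joins it with another gene. Some may lie outside *Gp1bb*, so their result is not one for *Gp1bb* alone. With these included, the members had 177 bins, of which 139 had a mean of at least 10 reads. None of these passed edgeR's test for a change in use relative to the rest of the gene after adjustment, compared to 0.0288% of all 176996 bins tested. At an unadjusted p under 0.05 there were 2 such bins with edgeR and 4 with limma's diffSplice, and none passed adjustment there either. Both bins with edgeR were in *Vwf*: bin 16 with a log2 change in use of 1.44 (unadjusted p = 0.0062) and bin 9 with 0.96 (unadjusted p = 0.050). For 6 members the exon counts had little to divide, since *Pf4* and *Ppbp* had 3 bins each, *Gp5* and *Gp9* 2 each, 84.8% of the bin reads of *Gp1ba* fell on bin 4, and no bin of *Gp6* reached the minimum. The 47 bins of *Itga2b* that were tested had changes in use between -0.50 and 0.79 on the log2 scale, with no unadjusted p below 0.27.

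Along *Vwf* the lower level was uneven. The split that follows was chosen after the values were seen and carries no test. Bins 1 to 16 took 18.9%, 17.0% and 18.4% of the bin reads of *Vwf* in wt replicates 1 to 3, while hnRNP L deficient replicate 2 had 32.7% there and replicate 3 had 31.5%. In these 16 bins the summed level was 3.93, 3.73 and 5.47 CPM of bin reads in wt, compared to 4.81 and 5.18 in hnRNP L deficient libraries. Both hnRNP L deficient libraries lay within the wt range. Over bins 17 to 74 the level was 16.9, 18.3 and 24.3 CPM in wt, compared to 9.88 and 11.3 in hnRNP L deficient libraries, which were below every wt library. The ratio of the group means was 1.14 for bins 1 to 16 and 0.534 for the rest. All 11 tested bins among bins 1 to 16 had a change in use above 0, whereas 16 of the 47 tested bins further along did. *Vwf* has 11 annotated transcripts, its median tested bin had 40.4 reads, and no bin passed adjustment.

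**Figure D3:**
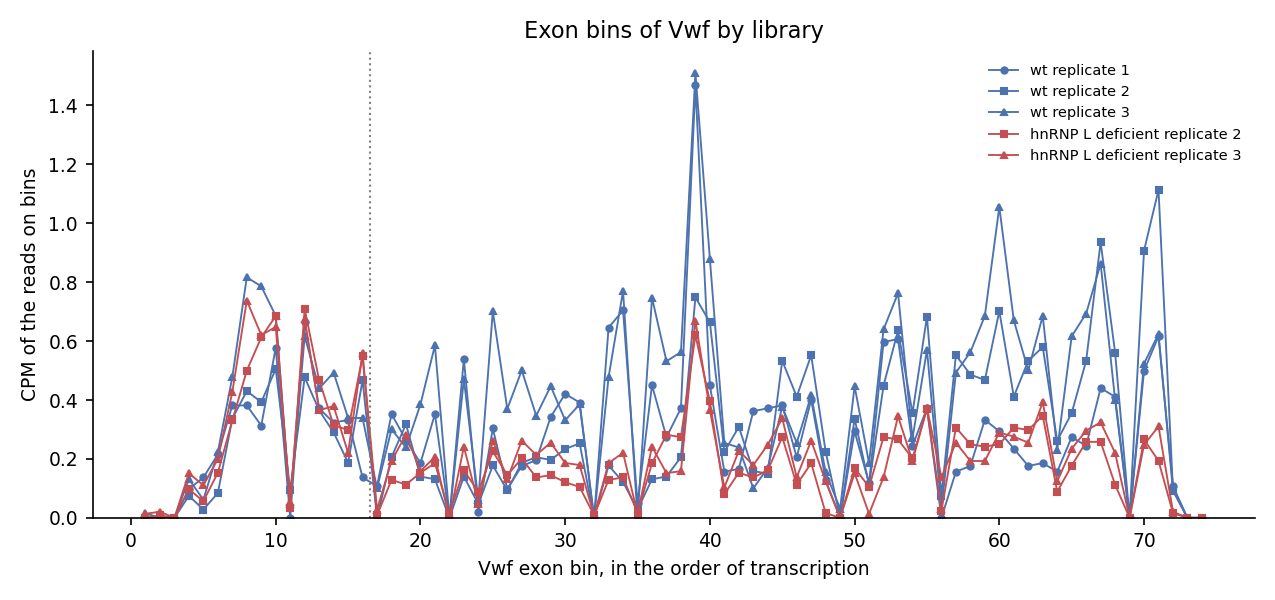
Level of each of the 74 exon bins of *Vwf*, in CPM of the reads on bins, in the order of transcription, for 3 wt (blue) and 2 hnRNP L deficient libraries (red). The dotted line follows bin 16. To its left the red and blue lines run together, and to its right the red lines mostly run below the blue ones, with ratios of the group means of 1.14 and 0.534.

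*Itga2b* (ENSMUSG00000034664; chromosome 11, 102453297 to 102470122, minus strand) encodes the alpha chain of the fibrinogen receptor and had the highest CPM of the 10 genes. It had 36.8, 65.4 and 45.7 CPM in wt libraries and 46.5, 37.7 and 48.4 CPM in hnRNP L deficient libraries. The 3 hnRNP L deficient libraries lay within the wt range, and wt replicate 2 was the highest of all. The log2 difference of -0.16 ± 0.21 (SE) was within this spread (edgeR adjusted p = 0.62), and without wt replicate 2 it was 0.10 (edgeR adjusted p = 0.63). *Itgb3*, which encodes the beta chain of the same receptor, had 9.20, 23.8 and 15.1 CPM in wt and 4.66, 7.15 and 15.9 CPM in hnRNP L deficient libraries. Its groups overlapped as well (log2 fold change -0.80 ± 0.53, edgeR adjusted p = 0.32, and -0.39 without wt replicate 2).

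*Pf4* (ENSMUSG00000029373; chromosome 5, 90772435 to 90773383, plus strand) and *Ppbp* (ENSMUSG00000029372; chromosome 5, 90768518 to 90770063, plus strand) encode CXC chemokines of the alpha granules and are neighbours in the genome. *Pf4* had 6.48, 8.29 and 6.01 CPM in wt and 4.32, 6.99 and 11.1 CPM in hnRNP L deficient libraries. *Ppbp* had 1.73, 2.50 and 3.84 CPM in wt and 0.373, 0.581 and 8.49 CPM in hnRNP L deficient libraries. In both genes hnRNP L deficient replicate 3 was the highest of all 6 libraries and replicate 1 the lowest, so that the hnRNP L deficient values lay on both sides of the wt values. On the log2 scale the group difference was 0.11 ± 0.34 for *Pf4* (SE; edgeR adjusted p = 0.84) and 0.23 ± 1.19 for *Ppbp* (edgeR adjusted p = 0.91). Without hnRNP L deficient replicate 3 they were -0.29 and -2.49, with edgeR adjusted p-values of 0.57 and 0.093. Without wt replicate 2 the value of *Pf4* was 0.26. For *Ppbp*, then, this library decided the direction, and without wt replicate 1 the value was -0.0021.

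*Treml1* (ENSMUSG00000023993; chromosome 17, 48359916 to 48367176, plus strand) encodes a receptor of the alpha granule membrane that reaches the surface on activation. It had 5.02, 6.72 and 5.93 CPM in wt and 6.71, 4.31 and 4.81 CPM in hnRNP L deficient libraries, which overlapped (log2 fold change -0.16 ± 0.22, edgeR adjusted p = 0.64, and -0.054 without wt replicate 2). *Gp6* (ENSMUSG00000078810; chromosome 7, 4363965 to 4397744, minus strand), the gene of the collagen receptor, had 4, 4 and 13 reads in wt and 0, 1 and 10 reads in hnRNP L deficient libraries. It was therefore barely detected and was left out of the test. For the members that were tested and did not pass, the error sets the limit: 2 SE on either side of the log2 fold change reached from -0.58 to 0.27 for *Itga2b*, from -0.61 to 0.29 for *Treml1*, from -0.56 to 0.78 for *Pf4* and from -2.14 to 2.60 for *Ppbp*. The same range was -1.26 to 0.50 for *Gp1bb* and -1.04 to -0.21 for *Gp9*, which alone among them did not include 0.

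hnRNP L deficient replicate 3 exceeded the other 2 hnRNP L deficient libraries in more genes of this lineage. After its *Ppbp* value was seen, the genes of the members and of the lists described further below with a mean of at least 0.5 CPM were searched for values more than 1.5 times those of both other hnRNP L deficient libraries. This held for 12 of 99 genes, 12.1%, compared to 0.952% of all 12610 genes at that level. Among the members these were *Ppbp* (14.6 times the next library), *Gp1bb* (1.59 times) and *Pf4* (1.59 times). The others included *Sparc* (5.80 times), *Alox12* (3.55 times), *Clec1b* (2.41 times), *Itgb3* (2.23 times) and *Tubb1* (1.77 times), which encode a granule protein, the platelet lipoxygenase, the podoplanin receptor, the integrin beta chain and the platelet beta tubulin. *Gp5*, *Vwf* and *Itga2b* were not among them. The labels give hnRNP L deficient replicates 2 and 3 the same leading embryo number, and wt replicate 1 and hnRNP L deficient replicate 1 another shared one, without saying what it stands for.

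To set the early against the late genes within each library, the log2 ratio of *Itga2b* to each of the 8 late genes that passed the filter was taken from CPM plus 0.1. *Itga2b* was 5.51, 13.9 and 5.72 times as abundant as *Gp1ba* in wt libraries and 3.48, 2.88 and 2.92 times in hnRNP L deficient libraries. Against *Gp5* the ratios were 3.14, 9.60 and 3.91 in wt and 2.03, 2.14 and 2.29 in hnRNP L deficient libraries. In both, the 3 hnRNP L deficient ratios were below the 3 wt ratios, by -1.30 and -1.19 on average on the log2 scale. Wt replicate 2 had by far the highest ratio in both, and these averages include it. Against *Gp9* the order was turned: the ratios were 7.89, 10.02 and 7.40 in wt and 13.9, 10.3 and 11.2 in hnRNP L deficient libraries, 0.48 higher on the log2 scale. For each of these 3 pairs the exact two-sided permutation test gave p = 0.1, the smallest that it allows, and 0.27 after adjustment over the 8 pairs. The share of all genes with such an order of ratios was not determined.

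The other 5 ratios overlapped between the groups, with exact permutation p-values between 0.4 and 0.9 and average differences of 0.43 for *Vwf*, -0.14 for *Pf4*, 0.80 for *Ppbp*, 0.16 for *Gp1bb* and 0.048 for *Treml1* on the log2 scale. Averaged over the 8 late genes, the log2 ratio was 3.06 ± 0.360 in wt and 2.97 ± 0.368 in hnRNP L deficient cells (SD, n = 3), a difference smaller than the spread of either group. The late genes thus had no shared direction relative to the early gene. The difference was -0.089 with all 6 libraries, 0.12 without wt replicate 2 and 0.10 without hnRNP L deficient replicate 3.

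**Figure D4:**
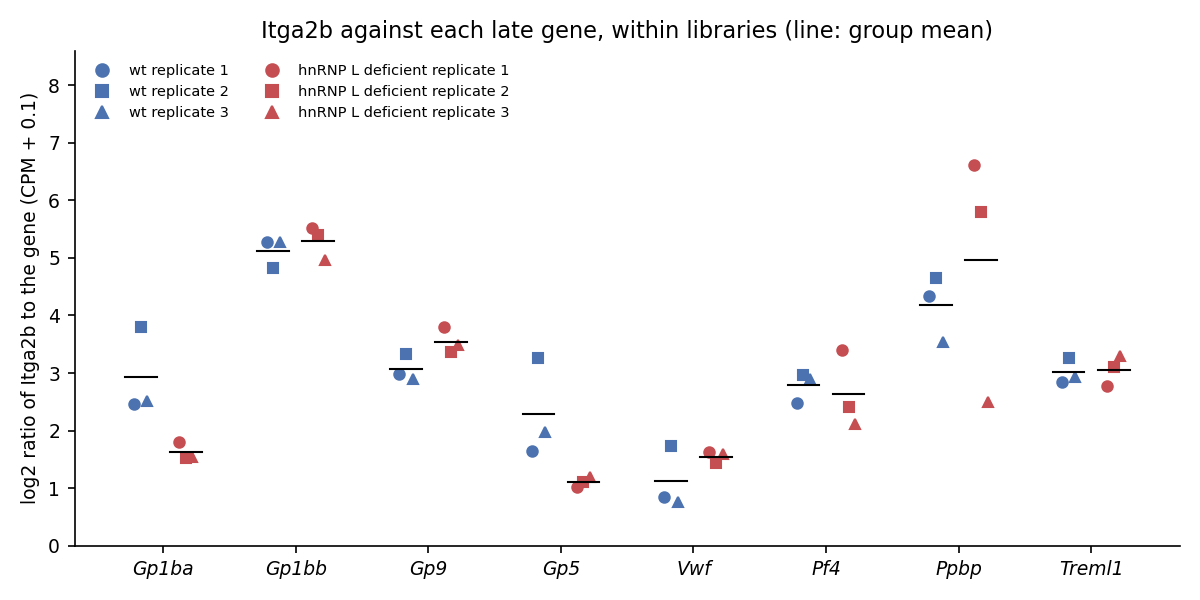
Log2 ratio of *Itga2b* to each late gene within each library, from CPM plus 0.1, with wt in blue, hnRNP L deficient in red and group means as lines. The red points are below the blue ones for *Gp1ba* and *Gp5* (-1.30 and -1.19 on average), above them for *Gp9* (0.48), and mixed with them for the other 5 genes.

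The rest of the megakaryocyte and platelet programme was examined through 6 lists of 94 genes in all, of which 93 were matched to an identifier (all but *Bin2*) and 92 passed the filter. Of these, 15 fell and none rose by edgeR at an adjusted p of 0.05, compared to 9.85% of all genes called lower and 9.32% called higher. At an unadjusted p under 0.05, 31 were lower and 3 were higher. DESeq2 called 27 lower and 2 higher, and limma-voom 33 lower and 2 higher. The median log2 fold change over the 92 genes was -0.29, compared to -0.026 over all genes tested. Their direction thus differed from that of *Gp1ba* and *Gp5*. Without wt replicate 2, 19 fell, 12 of them among the 15.

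Of the genes of thrombopoietin signalling, *Jak2*, which encodes a kinase of cytokine receptors, fell by 0.39 on the log2 scale (edgeR adjusted p = 0.021). *Stat5b* (-0.25), *Sh2b3* (-0.43), *Stat5a* (-0.010) and *Socs3* (0.77) did not pass. Without wt replicate 2 the value of *Sh2b3* was -0.25. No read fell on *Thpo*, the gene of the hormone itself, in any library.

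Of 16 transcription factors of the lineage, 3 fell: *Runx1* (log2 fold change -0.95, edgeR adjusted p = 0.014), *Mef2c* (-0.99, edgeR adjusted p = 0.023) and *Etv6* (-0.76, edgeR adjusted p = 0.048). The most abundant of those that did not pass were *Ldb1* (-0.13), *Myb* (-0.17), *Zfpm1* (0.41) and *Tal1* (0.30). Without wt replicate 2 the log2 fold change was -0.47 for *Etv6*, which still passed, -0.20 for *Ldb1*, -0.072 for *Myb*, 0.18 for *Zfpm1* and 0.15 for *Tal1*. *Gata1*, chosen after its values were seen, had 251, 181 and 248 CPM in wt and 318, 299 and 298 CPM in hnRNP L deficient libraries. These groups did not overlap, an arrangement in that direction found in 22.7% of all genes tested. Its log2 fold change of 0.43 missed the threshold with edgeR (adjusted p = 0.060) while DESeq2 and limma-voom called it. The other genes that these tools called higher were *Mafg* with DESeq2 and *Lat* with limma-voom, and without wt replicate 2 edgeR called *Gata1* and *Lat*. *Fli1*, also chosen after its values were seen, went the other way, with 17.0, 49.8 and 17.5 CPM in wt libraries. The hnRNP L deficient libraries had 9.05, 11.3 and 11.2 CPM of it, below every wt library, which held for 22.7% of all genes tested. The log2 fold change of *Fli1*, -1.42, missed the threshold with edgeR (adjusted p = 0.071), which called it in 2 of the fits that left out 1 library. Over all alternatives, with edgeR, DESeq2 or limma-voom, its adjusted p ranged from 0.0017 to 0.20. Wt replicate 2 was by far its highest library.

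Among 22 other surface and agonist receptors 6 fell, with a median log2 fold change of -0.94 over the list. They were *Pear1*, a receptor of platelet contacts (-1.40, edgeR adjusted p = 0.013), *Tbxa2r*, the thromboxane receptor (-1.38, edgeR adjusted p = 0.022), *Selp*, the granule membrane selectin (-1.54, edgeR adjusted p = 0.043), *Jam3*, an adhesion molecule (-1.17, edgeR adjusted p = 0.045), *Cd36*, a thrombospondin receptor (-0.89, edgeR adjusted p = 0.047), and *Itga6*, a laminin receptor chain (-0.98, edgeR adjusted p = 0.049). *Itgb1* (-0.12), *F2r* (0.27) and *P2ry1* (-0.25) did not pass, like *Itgb3* above. Without wt replicate 2, the highest library for *Itga6* with 80.9 CPM, the log2 fold change was -0.58 for *Itga6*, which still passed, -0.19 for *Itgb1* and 0.16 for *F2r*.

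Granule cargo held 2 genes out of 12 that fell, *Mmrn1*, which encodes the factor V carrier multimerin (-1.04, edgeR adjusted p = 0.010), and *Angpt1*, which encodes a ligand of the receptor Tie2 (-1.41, edgeR adjusted p = 0.010). *Tgfb1* (-0.0024), *Srgn* (-1.87), *F13a1* (-3.13) and *Thbs1* (-0.27) did not pass. Wt replicate 2 was the highest library for *Srgn* (496 CPM) and *F13a1* (211 CPM), and without it the log2 fold change was -0.77 for *Srgn*, -1.99 for *F13a1* and 0.37 for *Thbs1*. Of 17 genes of granule biogenesis *Slc35d3*, a dense granule transporter gene, fell (-0.96, edgeR adjusted p = 0.035), and *Ap3b1* (-0.023), *Vps16* (-0.054), *Nbeal2* (-0.35) and *Hps1* (-0.14) did not pass. The last 2 were at -0.0089 and -0.017 without wt replicate 2. Of 19 tested genes of the cytoskeleton and signalling *Plek*, the gene of pleckstrin, fell (-1.26, edgeR adjusted p = 0.026), while *Tln1* (-0.18), *Flna* (-0.043), *Myh9* (-0.013) and *Fermt3* (-0.073) did not pass.

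**Figure D5:**
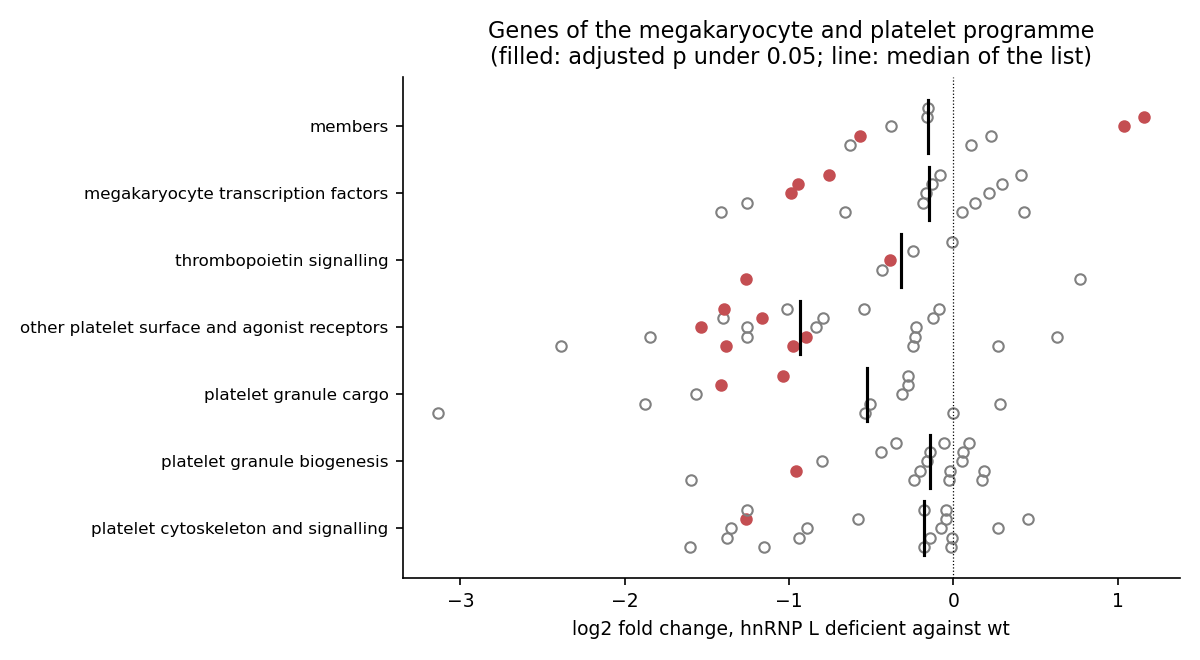
Log2 fold change of hnRNP L deficient against wt cells for the 9 tested members and the 92 tested genes of the 6 lists. Filled red circles mark an edgeR adjusted p under 0.05 and black lines the median of each list. The filled circles to the right of 0 are *Gp1ba* and *Gp5*, and the 15 filled circles of the other lists are all to the left, with the lowest list median, -0.94, for the surface and agonist receptors.

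Many genes of these lists are also expressed outside the lineage, and markers of other cells moved with them. Of 8 stem cell markers 3 fell (*Kit*, *Cd34* and *Hlf*), and their sum was between 642 and 914 CPM in wt and between 449 and 491 CPM in hnRNP L deficient libraries. Of 10 monocyte and macrophage markers 3 fell, with sums between 37.8 and 288 CPM in wt and between 11.5 and 29.1 CPM in hnRNP L deficient libraries. None of the 8 neutrophil precursor markers and none of the 8 mast cell and basophil markers passed edgeR's test, with 0 and 2 of them at an unadjusted p under 0.05. Among the erythroid markers *Car1* rose (edgeR adjusted p = 0.022), with sums over the 10 genes of the list between 2870 and 3570 CPM in wt and between 2906 and 3596 CPM in hnRNP L deficient libraries. Lymphoid markers summed to at most 27.7 CPM, with 2 of 4 tested genes lower, and *Cd79a*, *Ebf1*, *Pax5*, *Rag1* and *Cd3e* were at 0 in some libraries. Of 8 hepatocyte markers *Ttr* fell, with sums between 110 and 235 CPM in wt and between 21.4 and 73.1 CPM in hnRNP L deficient libraries. The part of these cells in the levels of the members and of the lists was not tested.

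The members also differed in how they varied from library to library. As a description over the same 6 libraries, whose values share the scaling of each library, the highest Pearson correlations of log2 CPM plus 0.1 were those of *Gp1ba* with *Gp5* (r = 0.96), *Itga2b* with *Gp1bb* (r = 0.94), *Gp9* with *Vwf* (r = 0.83) and *Pf4* with *Ppbp* (r = 0.76). Outside the members, the genes whose profile was most like the mean standardized profile of the 9 members were *Zfp784* (r = 0.96), *Gm10076* (r = 0.96), *Il1rap* (r = 0.94), ENSMUSG00000074414 (r = 0.94), *Scp2-ps2* (r = 0.94), *Pheta1* (r = 0.94), *Aptx* (r = 0.94) and *Rpl18-ps1* (r = 0.93). Those most like *Itga2b* were *Rpl36-ps2* (r = 0.996), *Stard5* (r = 0.99), *Gm26782* (r = 0.98), *Tmem160* (r = 0.98), *Hes6* (r = 0.98), *Slc27a4* (r = 0.97), *Micall1* (r = 0.97) and *Fundc1* (r = 0.97). None of these 16 belonged to the lists of the lineage, and with 6 libraries and 14396 genes tested such values are a description only.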

How the data were processed

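RNA-seq libraries of Lin-cKit+ FL cells from 3 wt and 3 hnRNP L deficient E14.5 embryos were analysed. Per the methods and the submitters' processing notes, the authors made stranded mRNA libraries, aligned paired reads to GRCm38 with TopHat2 2.0.10, made gene counts with HTSeq and exon bin counts with the DEXSeq script, and deposited these counts without normalization. The strand setting of the counting is not given in the sources used here. Replicates were numbered in accession order. Reads with no gene, ambiguous reads and reads without a unique alignment, 46.7% to 53.3% of the reads in the tables, were left out. Bin counts were used for 5 libraries, all but the first hnRNP L deficient replicate.

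Gene counts were tested with edgeR 4.0.16 in R 4.3.3 (TMM normalization, default expression filter, robust quasi-likelihood test, Benjamini-Hochberg adjustment over all 14396 genes tested). The SE of a log2 fold change was derived from the F statistic of the test. For bins, diffSpliceDGE was used where the mean was 10 reads or more. Exact permutation tests used SciPy 1.17.1. Alternatives were DESeq2 1.42.0, limma-voom (limma 3.58.1), other normalizations and filters, and leaving out each library. Positions and lengths are from GENCODE for GRCm38. The steps were tested on simulated data.

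The members, the lists and the tests were chosen with earlier results of these data known. The genes named were the members, *Hnrnpl*, every gene of the other lists called by edgeR with up to 4 of the most abundant that were not, and the 8 genes most like the members and like *Itga2b*. Some genes that this rule would name are not reported here. Genes named in addition are the cell type markers and those said to be chosen after their values were seen, with *Gata1*, *Fli1*, *Mafg*, *Lat* and the genes high in hnRNP L deficient replicate 3 among them. The 6 libraries had from 55952160 to 76157226 gene reads each.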

Additional observations from a re-analysis of the deposited data

How the results depend on the processing

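Over the 7 alternatives that keep all 6 libraries, *Gp1ba* and *Gp5* stayed called higher and *Vwf* lower. DESeq2 and limma-voom also called *Gp9* lower, so that 2 members were lower with each, as without wt replicate 1. Over all genes DESeq2 called 2064 higher and 2236 lower, and limma-voom 2537 and 2751, compared to 1341 and 1418. In the lists, 27 genes were lower with DESeq2 and 33 with limma-voom, and the count of genes higher was 2, 2 and, without the expression filter, 1. Leaving out 1 library gave between 5 and 2312 genes higher and between 0 and 2479 lower over all genes, between 0 and 2 members higher and between 0 and 2 lower, and between 0 and 2 list genes higher and between 0 and 31 lower. The calls were lost without wt replicate 3 or any of hnRNP L deficient replicates 1 to 3, when few genes passed at all. *Gp1ba*, *Gp5* and *Vwf* then had unadjusted edgeR p-values between 0.0014 and 0.031, and the cause of the loss was not tested.

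Directions that turned belonged to genes that had not passed. On leaving out each library in turn, the log2 fold change ran from -0.32 to 0.10 for *Itga2b*, from -0.68 to 0.13 for *Gp1bb*, from -0.29 to 0.39 for *Pf4* and from -2.49 to 0.76 for *Ppbp*, which was -0.53 with limma-voom. In the lists it ran from -0.078 to 0.027 for *Ap3b1*, from -0.20 to 0.018 for *Fermt3*, from -0.18 to 0.17 for *Flna*, from -0.087 to 0.11 for *Myh9*, from -0.097 to 0.063 for *Stat5a*, from -0.12 to 0.12 for *Tgfb1* and from -0.80 to 0.37 for *Thbs1*. With limma-voom *Thbs1* was at 0.28, *Flna* at 0.036 and *Myh9* at 0.035. Without the filter *Stat5a* was at 0.014, *Tgfb1* at 0.022, *Ap3b1* at 0.00096 and *Myh9* at 0.011, and *Tgfb1* was at 0.0093 with DESeq2 and with its size factors. By the length of the longest transcript the wt levels were 14.3 CPM per kb for *Itga2b*, 11.8 for *Pf4* and 2.52 for *Vwf*.

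No paired analysis was possible because the labels give embryo numbers, not replicate numbers, and only 1 wt and 1 hnRNP L deficient embryo share a leading number. No group was large enough for a test for outlying samples. Precision rests on 3 embryos per group, and for exon bins on 2 hnRNP L deficient libraries. The parts of depth and of the spread between embryos in it were not separated.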
